A study of Mus musculus with 10 samples.

Results

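The 8 genes described here, S100a8, S100a9, Csf3r, Cxcr2, Retnlg, Il1b, Clec4d and G0s2, are commonly used as markers of neutrophils. They were chosen by gene symbol and make up 8 of the 17363 named rows of the normalized count table. The RNA came from CD4+CD25- T cells sorted from mouse breast tumours, so these genes serve here as a reading of RNA from other cells. The table holds 10 RNA-seq libraries of 4 genotypes, all from mice of 23 weeks on C57BL/6.

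All mice carried floxed Tgfbr2, the gene of a TGF-β receptor chain, together with PyMT, an oncogene transgene that gives mammary tumours. The WT group had no Cre (Tgfbr2 fl/fl PyMT), and the KO group also carried ThPOK-Cre, a Cre expressed with the CD4 T cell lineage factor ThPOK. The IL4-/- group was Il4-/- Tgfbr2 fl/fl PyMT, and the IL4-/-KO group was Il4-/- ThPOK-Cre Tgfbr2 fl/fl PyMT. Each genotype had 2 replicates. Each KO replicate was sequenced in a first and a repeat library, which were averaged for tests and count as 1 replicate. The labels do not say whether replicates were separate mice, so a p-value here reflects only how these libraries varied, and that variation may be technical.

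Neutrophils are short-lived phagocytes made in the bone marrow under granulocyte colony-stimulating factor and called into tissue by CXC chemokines. They accumulate in many tumours, and their transcripts are not part of the usual programme of a CD4 T cell. Il1b, Clec4d, Csf3r and G0s2 are less specific, since monocytes and macrophages also transcribe Il1b, Clec4d and Csf3r, and several tissues transcribe G0s2. In bulk samples, fewer cells of a type and less RNA per cell cannot be told apart.

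The libraries held 17121030 to 33802781 reads on named genes, and 12459 to 15899 genes with a read. Values are normalized counts, that is reads divided by a size factor of the library. 1 read was worth 0.644 to 1.47 normalized counts, and the limit that a count of 0 allows, 3 reads, was 1.93 to 4.41. The kit used no molecular identifiers, so intervals and limits cover counting error only. Cd4 had 12165 to 40172 normalized counts in the 10 libraries and Lck, a T cell kinase, 16899 to 49604.

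The genes lie on several chromosomes of mm10, with gene models of GENCODE M21. S100a8 (chr3:90668978-90670035, plus strand) and S100a9 (chr3:90692632-90695721, minus strand) are neighbours, with 22596 bases and 0 annotated genes between them. Retnlg is at chr16:48872621-48874496 on the plus strand, Il1b at chr2:129364570-129371139 on the minus strand and Csf3r at chr4:126024550-126044440 on the plus strand. Cxcr2 is at chr1:74153989-74161246 on the plus strand, G0s2 at chr1:193272161-193273217 on the minus strand and Clec4d at chr6:123262111-123275265 on the plus strand. Whether counting used strand is not given in the sources used here. Il1bos, antisense to Il1b, shares 25 of the 1907 exon bases of Il1b (1.31%) and had at most 12 normalized counts in any library. G0s2 lies opposite Lamb3 and shares 0 exon bases with it.

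The promoters of S100a8, S100a9 and Retnlg are shown because each holds a match to a myeloid factor's motif. These genes stood highest in KO replicate 1, as did Cxcr2 and Clec4d, whose promoters held no match. RefSeq promoter sequences of GRCm38.p6, from 250 bases before to 50 after the start of each gene, were found for 8 of 8 genes. Capitals mark a match to the C/EBP motif TTGCNNAA or to the PU.1 motif GAGGAAGT, searched on both strands. C/EBP and PU.1 are transcription factors of the myeloid lineage.
S100a8 (chr3:90668821-90669120, plus strand): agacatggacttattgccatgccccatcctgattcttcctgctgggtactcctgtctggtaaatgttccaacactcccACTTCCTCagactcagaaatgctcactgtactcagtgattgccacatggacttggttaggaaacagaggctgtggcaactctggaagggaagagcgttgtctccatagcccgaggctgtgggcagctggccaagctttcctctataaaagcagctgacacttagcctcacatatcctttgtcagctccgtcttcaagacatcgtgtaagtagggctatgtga
S100a9 (chr3:90695672-90695971, minus strand): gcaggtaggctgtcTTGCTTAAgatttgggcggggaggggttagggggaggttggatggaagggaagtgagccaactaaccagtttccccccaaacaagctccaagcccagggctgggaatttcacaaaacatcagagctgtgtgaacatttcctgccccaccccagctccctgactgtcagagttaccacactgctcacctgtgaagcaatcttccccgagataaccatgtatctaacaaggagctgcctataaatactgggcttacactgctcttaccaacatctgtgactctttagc
Retnlg (chr16:48872358-48872657, plus strand): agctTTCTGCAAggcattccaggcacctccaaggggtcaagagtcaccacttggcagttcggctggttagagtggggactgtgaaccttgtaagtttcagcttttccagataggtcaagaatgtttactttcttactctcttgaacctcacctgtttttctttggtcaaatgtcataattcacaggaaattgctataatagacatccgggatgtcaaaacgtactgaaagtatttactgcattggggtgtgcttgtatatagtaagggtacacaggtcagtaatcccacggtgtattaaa
The S100a8 match is to PU.1 on the opposite strand, with its first base at -172 from the start. The S100a9 match is to C/EBP at -236, and the Retnlg match is to C/EBP on the opposite strand at -246. The other 5 promoters held neither motif. Among 32851 promoters of the same length, 10.8% held the C/EBP motif and 3.20% the PU.1 motif. A match is a run of letters only, and binding was not measured.

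S100a8 and S100a9 encode the subunits of calprotectin, the most abundant protein of the neutrophil cytoplasm. S100a8 had normalized counts of 291 and 21 in WT replicates 1 and 2, 1844 and 318 in the first KO libraries, 2210 and 115 in their repeats, 19 and 70 in IL4-/-, and 13 and 121 in IL4-/-KO. S100a9 had 190 and 26 in WT, 1904 and 244 in the first KO libraries, 2304 and 170 in their repeats, 0 and 49 in IL4-/-, and 9 and 160 in IL4-/-KO. Both genes stood highest in KO replicate 1, in both of its libraries, and all other libraries had at most 318 of either. KO replicate 1 gave 73.0% of the S100a8 counts summed over the 8 replicates and 76.7% of those of S100a9, and exceeded the next replicate 6.96-fold and 10.2-fold. Scaled to CPM, S100a8 reached 73.0 in the first library of KO replicate 1 (exact 95% interval 69.0 to 77.1) and 87.6 in its repeat (84.2 to 91.0).

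Replicates of 1 genotype differed widely in calprotectin RNA. S100a8 differed 13.8-fold between the WT replicates, 9.36-fold between the KO replicates, 3.77-fold in IL4-/- and 9.61-fold in IL4-/-KO. Replicate 1 was the higher in WT and KO, and replicate 2 in IL4-/- and IL4-/-KO. The ratio of the pair was steadier than their level. S100a9 gave 50.8% of the reads of the pair in the first library of KO replicate 1 (exact interval 48.8 to 52.8) and 51.0% in its repeat (49.7 to 52.4). In the other libraries with S100a9 reads the share ran from 39.5% in WT replicate 1 (34.4 to 44.7) to 59.6% in the repeat of KO replicate 2 (53.8 to 65.2). IL4-/- replicate 1 had 0 of 23 reads on S100a9 (0 to 14.8), the only library whose interval lay wholly below those of the other 9.

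**Figure D1:**
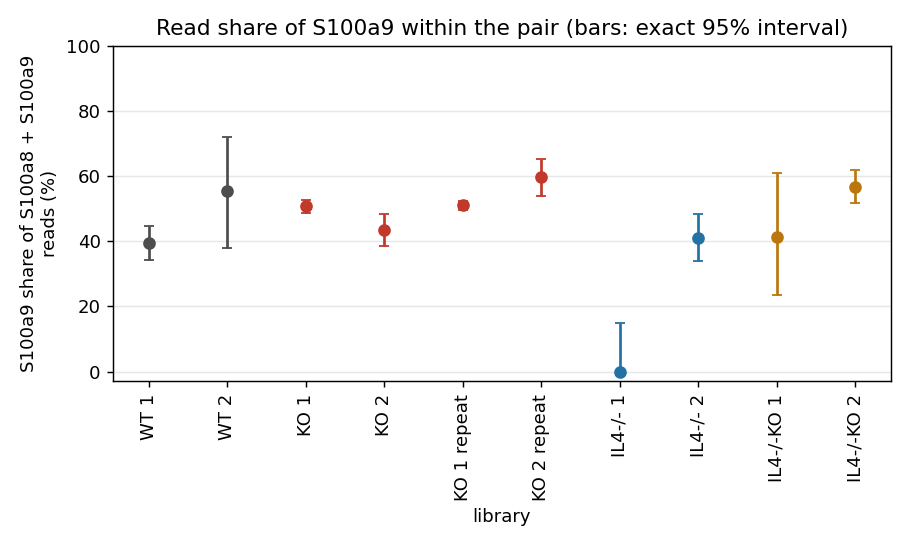
Share of S100a9 in the reads of S100a8 and S100a9 together (vertical axis, percent) in each of the 10 libraries (horizontal axis, coloured by genotype), with exact 95% intervals of counting error. Of the libraries, 9 lie between 39.5% and 59.6%, and IL4-/- replicate 1 is at 0% with an upper limit of 14.8%.

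Csf3r, Cxcr2 and Clec4d encode surface receptors, for granulocyte colony-stimulating factor, for CXC chemokines, and a C-type lectin. Csf3r had normalized counts of 0 and 51 in WT, 538 and 113 in the first KO libraries, 487 and 0 in their repeats, 91 and 738 in IL4-/-, and 132 and 101 in IL4-/-KO. Its order was unlike that of calprotectin, with IL4-/- replicate 2 highest, 1.44-fold above KO replicate 1. The libraries of KO replicate 2 disagreed, with 113 in the first and 0 in the repeat, a first library at least 39.8-fold higher when 3 reads per library is the floor. Cxcr2 was low, at 1.3 and 25 in WT, 93 and 0 in the first KO libraries, 144 and 0 in their repeats, 0 and 15 in IL4-/-, and 0 and 35 in IL4-/-KO. Clec4d had 7.9 and 36 in WT, 135 and 1.3 in the first KO libraries, 54 and 0 in their repeats, 12 and 72 in IL4-/-, and 3.7 and 8.7 in IL4-/-KO. KO replicate 1 stood highest for Cxcr2, 3.34-fold above the next replicate, and for Clec4d, 1.32-fold above IL4-/- replicate 2. For Cxcr2 and Clec4d the ranges of KO, WT and IL4-/- overlapped, while both WT libraries of Csf3r were below both of IL4-/-.

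Retnlg and Il1b encode secreted proteins, a resistin-like peptide of granulocytes and the cytokine interleukin-1β. Retnlg had normalized counts of 28 and 9.2 in WT, 931 and 135 in the first KO libraries, 938 and 70 in their repeats, 0 and 0.64 in IL4-/-, and 0.74 and 2.9 in IL4-/-KO. In reads, the Il4-/- libraries held 0 and 1 in IL4-/- and 1 and 4 in IL4-/-KO, at or near the limit of detection. All 4 KO libraries were above both WT libraries, and the WT libraries above all 4 Il4-/- libraries. KO replicate 1 held 86.7% of the Retnlg counts over the 8 replicates, 9.11-fold more than KO replicate 2.

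Il1b followed another order. It had normalized counts of 1524 and 440 in WT, 4852 and 1577 in the first KO libraries, 4037 and 1105 in their repeats, 820 and 14470 in IL4-/-, and 950 and 1164 in IL4-/-KO. IL4-/- replicate 2 held 57.5% of the Il1b counts over the 8 replicates, 3.26-fold more than KO replicate 1 and 17.7-fold more than IL4-/- replicate 1. Per read of S100a8, Il1b had 1.83 reads in the repeat library of KO replicate 1 and 206 in IL4-/- replicate 2. Retnlg per read of S100a8 was 0.425 to 0.607 in the 4 KO libraries and 0.00917 in IL4-/- replicate 2. The library with the most Il1b therefore held 1 read of Retnlg and 70 normalized counts of S100a8.

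G0s2 encodes an inhibitor of the triglyceride lipase ATGL. It had normalized counts of 614 and 65 in WT, 500 and 152 in the first KO libraries, 494 and 412 in their repeats, 181 and 329 in IL4-/-, and 53 and 209 in IL4-/-KO. WT replicate 1 was highest, 1.24-fold above KO replicate 1, and the ranges of WT, KO and IL4-/- overlapped.

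**Figure D2:**
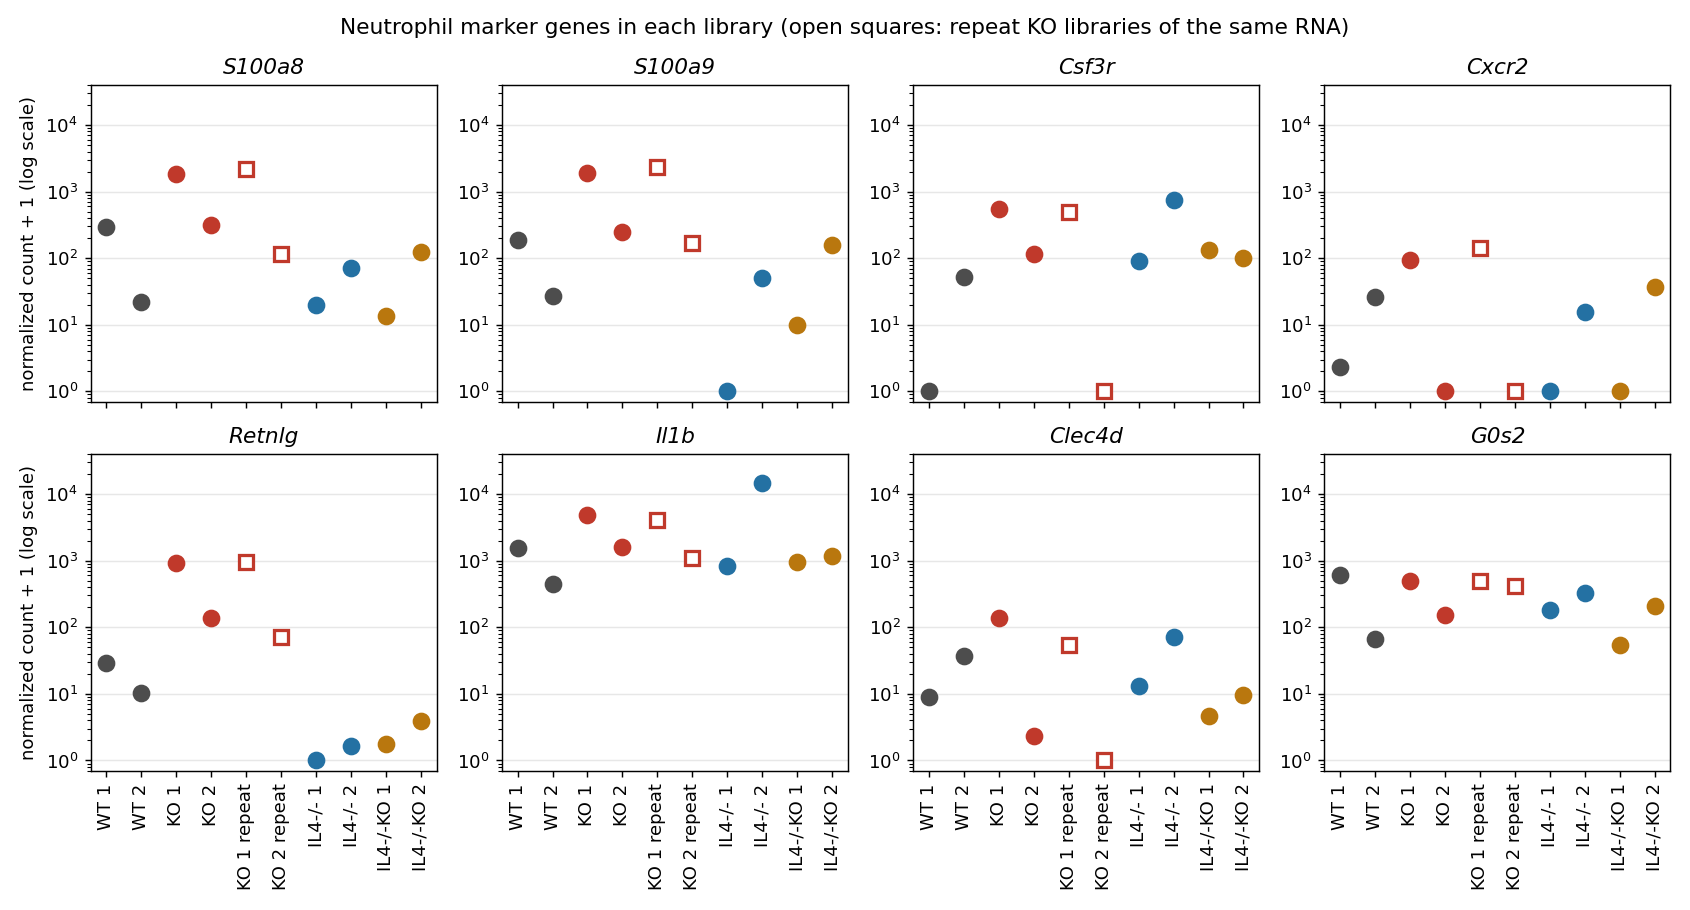
Normalized counts of each of the 8 genes (vertical axis, log scale of the count plus 1) in the 10 libraries by genotype (horizontal axis), with 1 point a library and open squares for the repeat KO libraries. S100a8, S100a9 and Retnlg peak in KO replicate 1, whereas Il1b (14470) and Csf3r (738) peak in IL4-/- replicate 2.

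Across the 8 genes, KO replicate 1 was the highest replicate for 5 and within the top 2 for 8. Among all genes tested it was the highest in 10.6%, and it exceeded the next replicate at least 3-fold in 0.525%, against 4 of the 8 genes here. IL4-/- replicate 2 was the highest for 2 of the 8 genes and for 12.1% of all genes. With the repeat libraries alone, KO replicate 1 was highest for 4 of the 8, since Clec4d was then highest in IL4-/- replicate 2. Between the libraries of KO replicate 1 the 8 genes differed 1.01-fold to 2.53-fold, with a median of 1.20 against 1.30 for all genes. Between those of KO replicate 2 the 5 genes above 3 reads in both differed 1.43-fold to 2.75-fold, with a median of 1.93 against 1.60, and Csf3r went from 86 reads to 0. Summed over the 8 genes, normalized counts were 10796 and 10668 in the libraries of KO replicate 1, 15742 in IL4-/- replicate 2 and 673 to 2656 in the other 7. Together the 8 genes took 0.00276% to 0.0723% of a library's reads, and Il1b alone gave 37.8% to 91.9% of them.

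Per kilobase of exon, the mean level over the 8 replicates fell in the order Il1b (1649), S100a9 (657), S100a8 (500.4), G0s2 (320), Retnlg (227), Csf3r (58.3), Clec4d (18.3) and Cxcr2 (7.98). The SD over replicates exceeded the mean for every gene except G0s2 (SD 227). Of the neighbouring pairs, Il1b over S100a9, G0s2 over Retnlg and Clec4d over Cxcr2 kept their order in 7 of 8 replicates, while S100a8 over G0s2 held in 1 of 8. In KO replicate 1 the order began differently, with S100a9 at 4031 per kilobase, S100a8 at 2920, Il1b at 2331 and Retnlg at 1576.

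The study's first question is what loss of Tgfbr2 does in CD4 T cells, and the KO and WT groups address it. With limma on log2(normalized count + 1) over 14473 genes and Benjamini-Hochberg adjustment over all of them, 0 of the 8 genes passed an adjusted p of 0.05, where 0.00691% of all genes did. At an unadjusted p of 0.05, 1 of 8 passed (Retnlg), where 12.1% of all genes did. Fold changes below are on this log2 scale. Adding 1 shrinks the change of low genes, yet a replicate at 0 can make it larger than a count-based estimate. Csf3r, at 0 in WT replicate 1, was at 3.46 by edgeR and DESeq2, below its limma value. Retnlg was higher in KO by 4.18 ± 1.55 (SE, limma adjusted p = 0.384), Csf3r by 4.57 ± 1.98 (0.414), S100a9 by 3.20 ± 2.24 (0.603) and S100a8 by 3.05 ± 1.72 (0.513). Values for the rest were 1.58 ± 1.25 for Il1b, 0.90 ± 1.14 for G0s2, 0.49 ± 2.89 for Cxcr2 and -0.52 ± 2.07 for Clec4d, with adjusted p of 0.653 to 0.966. The median of the 8 was 2.31, beside -0.07 over all genes tested. Replicates, with the KO libraries averaged, did not overlap for 3 genes (S100a9, Csf3r and Retnlg, all higher in KO), where 17.5% of all genes were higher without overlap and 20.1% lower. The repeat library of KO replicate 2 by itself lay within the WT range for S100a9 (170) and Csf3r (0).

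The size of these differences depended on single replicates. Without KO replicate 1, the log2 difference was 1.44 for S100a8, 1.53 for S100a9, 2.60 for Retnlg, 2.99 for Csf3r and 0.71 for Il1b, and none passed limma's threshold. Without WT replicate 2 it was 1.19 for S100a8, 0.68 for Il1b and -0.71 for G0s2, and without WT replicate 1 it was 1.71 for Csf3r. DESeq2 on the recovered reads called 1 of the 8, Retnlg, at 4.84 ± 1.34 (adjusted p = 0.0152), where it called 4.03% of all genes, and edgeR called 0 of 8 and 0% of all genes, in this and every later comparison.

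**Figure D3:**
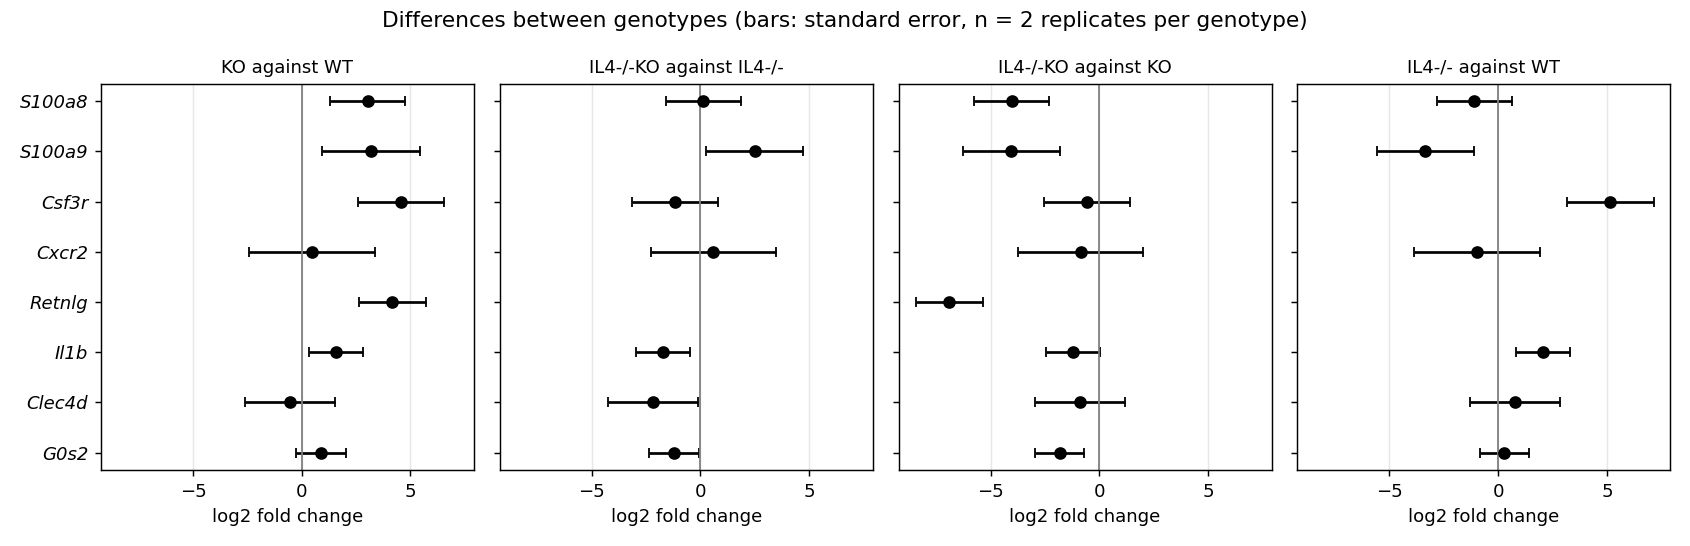
Log2 fold change of the 8 genes (horizontal axis) from limma in 4 comparisons, with bars of 1 standard error and 2 replicates a genotype. Retnlg is not drawn where IL4-/-, with 1 read in all, is a group, and no gene passed an adjusted p of 0.05.

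The same deletion without Il4 was compared between IL4-/-KO and IL4-/-. By limma 0 of 8 genes passed, as did 0% of all genes, and 0 of 8 had an unadjusted p under 0.05, where 3.25% of all genes did. Il1b was lower in IL4-/-KO by a log2 value of -1.71 ± 1.25 and Csf3r by -1.16 ± 1.98 (limma adjusted p = 1 for both). Both values came from IL4-/- replicate 2: without it they were 0.36 and 0.35. Retnlg is given by its reads only (0 and 1 against 1 and 4). The median of the 8 genes was -0.52, beside -0.03 over all genes. Of the 8, 1 was higher (Retnlg) and 1 lower (Clec4d) without overlap, where 16.8% and 16.2% of all genes were. The nearest Retnlg replicates, at 0.644 and 0.742 normalized counts, each held 1 read, so only the size factors set them apart. DESeq2 called 0 of 8 and 0.352% of all genes.

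The effect of losing Il4 on top of the deletion was read between IL4-/-KO and KO, a comparison that shares the KO samples with the first. Here too 0 of 8 passed by limma, as did 0% of all genes, whereas 2 of 8 had an unadjusted p under 0.05 (S100a8 and Retnlg), where 11.7% of all genes did. Retnlg was lower in IL4-/-KO by a log2 value of -6.90 ± 1.55 (limma adjusted p = 0.321), S100a8 by -4.02 ± 1.72 (0.428) and S100a9 by -4.05 ± 2.24 (0.540). Without KO replicate 1 these were -5.32, -2.41 and -2.38, and without IL4-/-KO replicate 1 they were -6.32, -2.44 and -2.04. All 8 values were below 0, with a median of -1.52 beside -0.07 over all genes, of which 7646 of 14473 were below 0. Some lists of other cells were lower as well, with 12 of 12 epithelium genes below 0 (median -1.97). So were 5 of 5 erythroid and platelet genes (median -1.49). Other lists were mostly above 0, with 10 of 15 macrophage and monocyte genes (median 0.42). The same held for 4 of 5 B cell genes (1.11) and 4 of 5 NK cell genes (0.74). The part of other cells in the values of the 8 genes was not tested. Replicates of 5 genes were lower without overlap (S100a8, S100a9, Retnlg, Il1b and G0s2), where 23.3% of all genes were, and 0 were higher, where 22.8% were. DESeq2 called 1 of the 8, Retnlg, at -8.19 ± 1.46 (adjusted p = 1.89e-05), where it called 2.88% of all genes.

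Between IL4-/- and WT, 0 of 8 passed by limma, as did 0% of all genes, and 2 had an unadjusted p under 0.05 (Csf3r and Retnlg), where 4.08% of all genes did. Csf3r was higher in IL4-/- by 5.17 ± 1.98 and S100a9 lower by -3.35 ± 2.24 (limma adjusted p = 1 for both). With 1 replicate left out, Csf3r ran from 2.31 (without WT replicate 1) to 8.02 (without WT replicate 2). S100a9 ran from -6.18 (without IL4-/- replicate 2) to -0.53 (without IL4-/- replicate 1). Of the 8 genes, 1 was higher and 1 lower without overlap, where 14.7% and 14.6% of all genes were, and DESeq2 called 0 of 8 and 0.227% of all genes. Whether Tgfbr2 deletion acted differently without Il4 was tested as an interaction. It passed for 0 of 8 genes and 0% of all genes by limma, and 0 of 8 had an unadjusted p under 0.05, where 3.52% of all genes did. The interaction of Csf3r was -5.73 ± 2.80 and that of Il1b -3.29 ± 1.77 (limma adjusted p = 0.988 for both). Csf3r was at -2.87 without WT replicate 1 and Il1b at -1.22 without IL4-/- replicate 2. DESeq2 called 0 of 8 interactions and 0.242% over all genes.

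Other neutrophil genes were read from lists of granule proteins and of surface and signalling proteins. Of 21 listed granule genes, 20 were in the table and 16 passed the filter on low values. Between KO and WT, 1 of the 16 passed limma, where 0.00691% of all genes did. It was Mmp9, the secreted protease gelatinase B, the only gene of all 14473 to pass. The median log2 value of the 16 was 1.91, beside -0.07 over all genes tested. Mmp9 had normalized counts of 92 and 108 in WT, 3205 and 4661 in the first KO libraries, 3473 and 11747 in their repeats, 276 and 249 in IL4-/-, and 4714 and 3726 in IL4-/-KO. All KO and IL4-/-KO libraries were above all others, and Mmp9 rose by 5.70 ± 0.46 in KO (limma adjusted p = 0.0316). In fits without WT replicate 2, KO replicate 2 or any 1 replicate of IL4-/- or IL4-/-KO, 0 genes passed. Mmp9 was highest in KO replicate 2, where none of the 8 genes was.

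The most abundant granule genes followed other libraries. Ltf, lactoferrin, which milk also holds, reached 40465 normalized counts in WT replicate 1 and was at 87 to 8545 elsewhere. Lcn2, lipocalin 2, and Lyz2, a lysozyme of myeloid cells, were highest in IL4-/- replicate 2, at 50880 and 28932. Ncf4, an NADPH oxidase subunit, had 2094 to 4396. Mpo and Elane, proteins of the primary granules, and Camp, of the secondary granules, had at most 8 normalized counts in any library. Mpo, Elane and Camp, and likewise Ngp, Mmp8, Fpr1, Il1r2 and the genes named below for a DESeq2 call, were singled out after their values were seen. Ngp, a granule protein, reached 356 and 200 in KO replicate 1, with at most 20 elsewhere. Mmp8, neutrophil collagenase, was at 434 and 533 there and at 122 or less elsewhere. Most granule genes did not peak there. Of the 16 tested, 3 were highest in KO replicate 1 and 8 in IL4-/- replicate 2, where 10.6% and 12.1% of all genes were.

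Of 28 surface and signalling genes, 27 were in the table and 23 were tested. Between KO and WT 0 of 23 passed limma, where 0.00691% of all genes did. Their median was 1.04, beside -0.07 over all genes. Ly6g, the surface antigen by which mouse neutrophils are usually gated, reached 148 and 172 normalized counts in KO replicate 1. Elsewhere it was at most 16, and it was at 0 in both IL4-/- libraries and in IL4-/-KO replicate 2. Mxd1, a MYC antagonist, had 36912 and 40109 in KO replicate 1 and 5513 to 15472 elsewhere. Il1r2, the decoy receptor for interleukin-1, had 4869 and 3908 there and 257 to 702 elsewhere, and Fpr1, a formyl peptide receptor, 284 and 487 there and at most 18 elsewhere. Selplg, the P-selectin ligand, which T cells also express, had 14244 to 33817. Ccrl2, a chemerin receptor, had 4725 and 4623 in KO replicate 1 and 1081 to 3673 elsewhere, and Lrg1, a secreted glycoprotein, had 9 to 4388. Of the 23 tested, 8 were highest in KO replicate 1 and 10 in IL4-/- replicate 2, where 10.6% and 12.1% of all genes were.

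Between IL4-/-KO and KO, 13 of the 16 granule genes and 19 of the 23 surface genes had values below 0, with medians of -1.43 and -1.19. So did 7646 of all 14473 genes, 12 of 12 epithelium genes and 5 of 15 macrophage and monocyte genes. By limma 0 of these neutrophil genes passed, as did 0% of all genes. DESeq2 called 1 granule gene (Hp) and 4 surface genes (Fpr1, Trem1, Mxd1 and Hdc) lower, where it called 2.88% of all genes. Fpr1 and Trem1 were at 0 in both IL4-/-KO replicates, and Fpr1 also in both libraries of KO replicate 2.

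**Figure D4:**
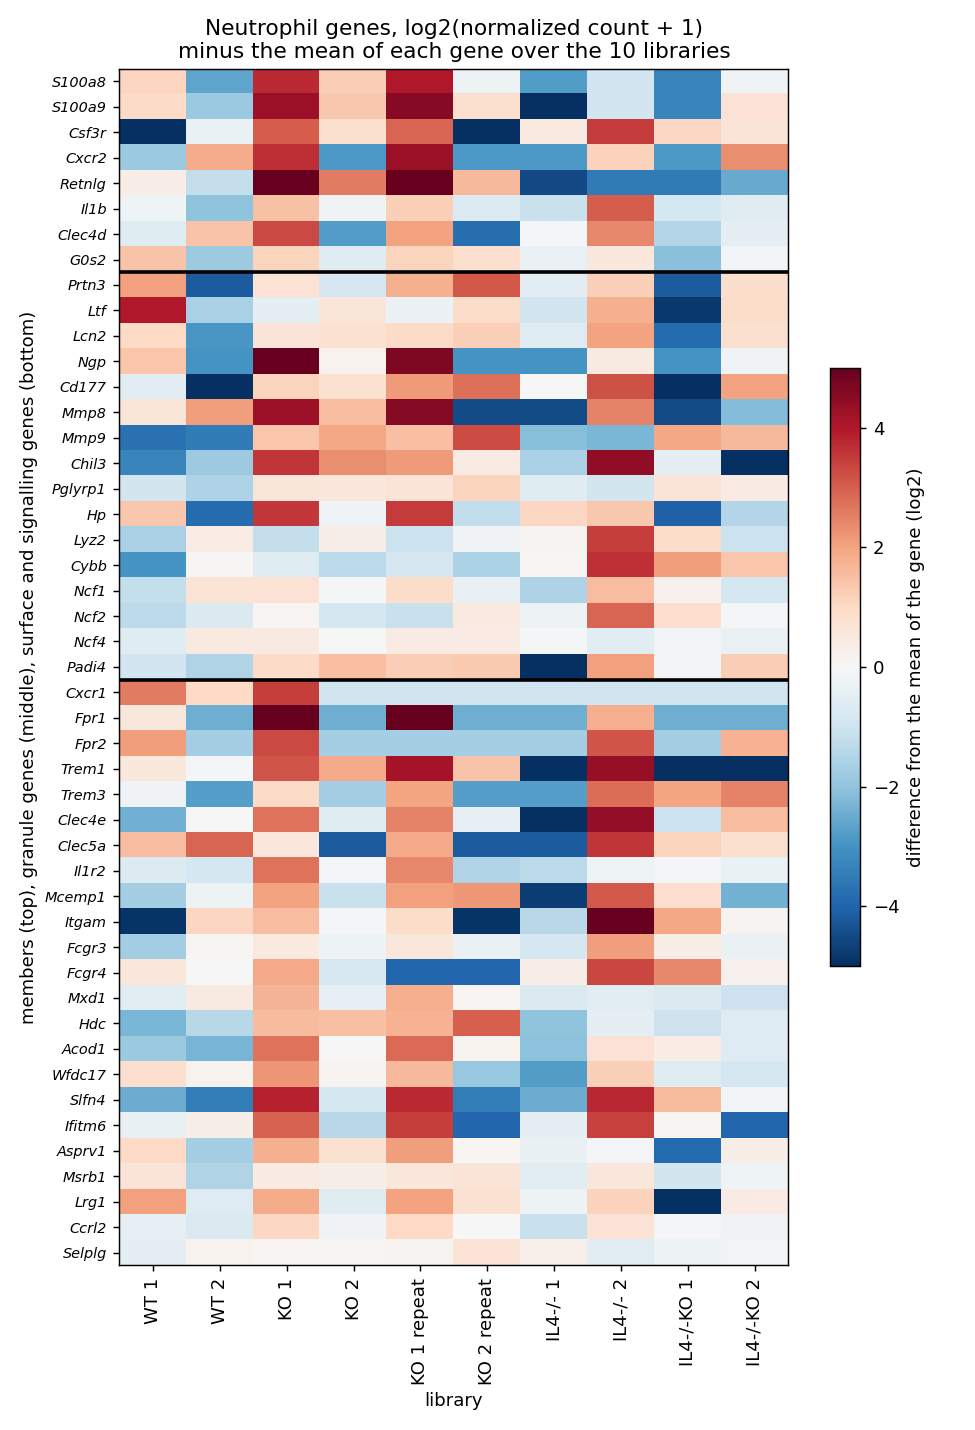
Heat map of log2(normalized count + 1) of the 8 genes and the tested granule and surface genes (rows) in the 10 libraries (columns), each row centred on its mean over the libraries. The libraries of KO replicate 1 hold the high values of S100a8, Retnlg, Ngp and Fpr1, while those of Il1b and Lyz2 are in IL4-/- replicate 2.

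Among 12 ligands that recruit or sustain neutrophils, 11 were tested. Between KO and WT 0 of 11 passed limma, where 0.00691% of all genes did. Their median was 0.999, beside -0.07 over all genes. Csf2 encodes the growth factor GM-CSF. Its WT libraries stood at 173 and 154 normalized counts, its first KO libraries at 2158 and 3114, and the remaining values were 1684 and 2099 in their repeats, 42 and 137 in IL4-/-, and 1131 and 291 in IL4-/-KO. Its KO libraries were all above its WT libraries, at 3.77 ± 0.79 (limma adjusted p = 0.296). DESeq2 called Csf2 (adjusted p = 0.000267) and Ccl3 (0.0175) higher in KO, where it called 4.03% of all genes. In the same comparison it called Mmp9 and Pglyrp1 of the granule list and Hdc and Acod1 of the surface list, all higher. Csf3, the ligand of Csf3r, had 32 to 1698 in the libraries with reads and 0 in IL4-/- replicate 1. Cxcl2, a ligand of Cxcr2, was highest in IL4-/- replicate 2, at 2888, with 289 to 1891 elsewhere. Ccl3, a chemokine of myeloid and T cells, had 5648 and 5772 in KO replicate 1 and 232 to 1474 elsewhere. Tnf had 875 to 3135.

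Of 15 genes of the interleukin-1 pathway, 15 were tested. Between KO and WT 0 of 15 passed limma, where 0.00691% of all genes did. Their median was 0.69, beside -0.07 over all genes. DESeq2 called 1 of the 15, where it called 4.03% of all genes. This was Il1rl1, the interleukin-33 receptor, at 2.08 (DESeq2 adjusted p = 0.0189), named after its value was seen. Myd88, the adaptor of the pathway's receptors, had 1975 to 5802 normalized counts. Casp1, the protease that matures interleukin-1β, had 228 to 4311, and Pycard, its inflammasome adaptor, 957 to 2766. Il18r1, the related interleukin-18 receptor, had 438 to 3464.

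Some lists of other cells stood highest in the same replicate as Il1b, Csf3r or G0s2. The 15 macrophage and monocyte genes, all found, summed to 124520 normalized counts in IL4-/- replicate 2 and to 22199 to 40946 in the other 7 replicates, and 13 of the 15 were highest in it. Of the list's genes most abundant over all replicates, Apoe was highest there (38435), whereas Ccr2 (7168 there) was highest in IL4-/-KO replicate 1 (16694). The 10 dendritic cell genes also had their highest sum in IL4-/- replicate 2, at 76395 against 4350 to 35939. Most of it came from Cd74 (56413) and H2-Ab1 (17709), and 5 of the 10 genes were highest in that replicate. The library with the most Il1b and Csf3r was also the one with the most macrophage RNA, and the part of these cells in either value was not tested. In KO replicate 1 the macrophage and monocyte list summed to 35113. In IL4-/-KO replicate 1 it summed to 40946, of which Ccr2 gave 16694.

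The 12 mammary and tumour epithelium genes summed to 183787 in WT replicate 1, the replicate with the most G0s2 and Ltf, and to 14679 to 128810 in the others. The genes of this list most abundant over all replicates, Krt18 and Csn3, had 55536 and 16991 there. The part of these cells in either value was not tested. The 11 core T cell genes summed to 249539 in KO replicate 1, the highest of the 8 replicates, and to 117961 in IL4-/- replicate 2, the lowest. The neutrophil surface markers Ly6g, Cxcr1, Stfa2l1 and Cebpe were at 0 in both IL4-/- replicates, and Cxcr1, Fpr1, Trem1 and Stfa2l1 in both IL4-/-KO replicates. In WT, Cebpe and the granule gene Mpo were at 0 in both replicates. In KO, with 2 libraries a replicate, none of the neutrophil markers was at 0 in both replicates. There Mpo, Elane and Cebpe each had 1 normalized count in 1 library and 0 in the rest.

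**Figure D5:**
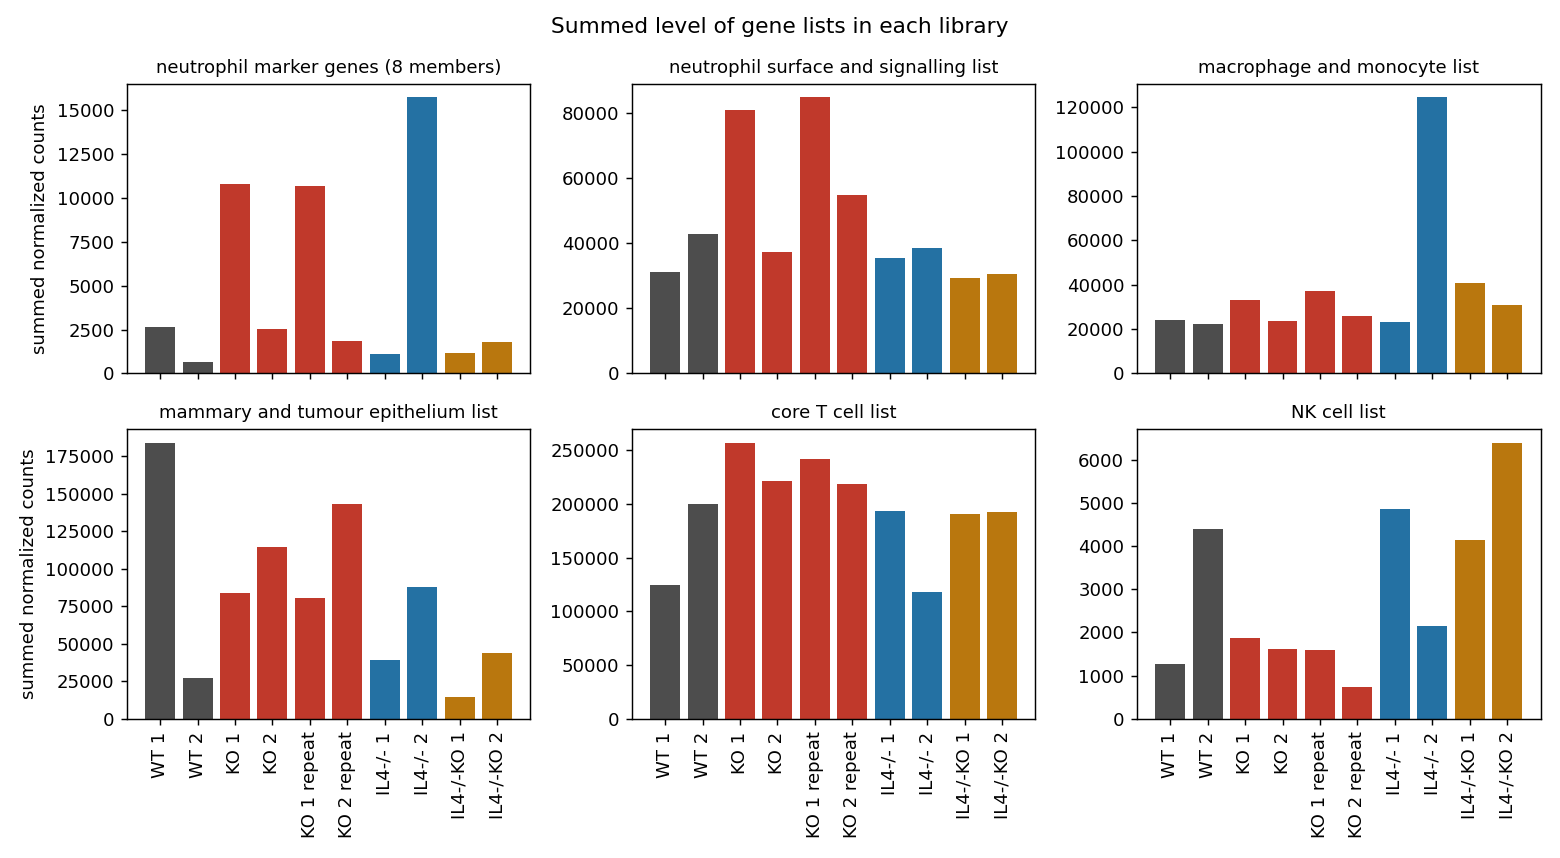
Summed normalized counts of marker lists (vertical axes, each starting at 0, with scales that differ between panels) in the 10 libraries (bars, coloured by genotype). The 8 genes sum highest in IL4-/- replicate 2 (15742), where Il1b alone gives 91.9% of the sum. The macrophage and monocyte list is also highest there (124520), and the epithelium list is highest in WT replicate 1 (183787).

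For the smaller lists, the highest sums over the 8 replicates were 9068 for mast cell and basophil genes (WT replicate 1, led by Kit), 563 for eosinophil genes (IL4-/-KO replicate 1, led by Ccr3) and 687 for B cell genes (IL4-/-KO replicate 1, led by Cd22). They were 1126 for CD8 T cell genes (WT replicate 2, with Cd8a at 783 and Cd8b1 at 343) and 6386 for NK cell genes (IL4-/-KO replicate 2, led by Klrk1). They were 856 for fibroblast genes (IL4-/- replicate 1, Dcn at 847) and 1112 for erythroid and platelet genes (KO replicate 1, led by Hbb-bs). The highest endothelial sum was 2495 (KO replicate 1), nearly all of it Pecam1, at 2457 and 2522 in its libraries. For lists that rest on 1 gene, the sum describes that gene more than the cell type.

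The pattern nearest to that of S100a8 was sought over the 8 replicates, by the root mean square distance between log2 profiles centred on their means. The 10 nearest of 14472 genes, in rising order with distances where given, were Ngp (0.82), Sftpd (0.92), 1810010H24Rik (0.98), Enho, Dnaic1 (1.06), Npy (1.06), Tmprss2 (1.07), Lrrc8e (1.09), Ubd (1.10) and Mt2 (1.11). The median distance was 2.39. S100a9 ranked 60, G0s2 72, Retnlg 208 and Il1b 1675, whereas Cxcr2 (8415), Clec4d (9399) and Csf3r (13862) were farther than the median gene. These distances rest on 8 points that share library depth and the KO replicate 1 peak, and describe these libraries only.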

How the data were processed

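Amplification used SMART-Seq v4 and library preparation KAPA Hyper Prep, per the labels' protocols. Base calling used bcl2fastq 2.18.0, reads were aligned with STAR to mm10 and counts normalized with DESeq2, per the submitters' processing notes. The counting tool and annotation are not given in the sources used here. The deposited signal values are read counts divided by a library size factor. Whole reads were recovered from them for 100% of values (tolerance 0.001). All columns were used. The 7 rows without a gene name, 0.0029% to 0.0205% of each library, were left out.

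The main test was limma 3.58.1 (trend) in R 4.3.3 on log2(normalized count + 1), with 4 genotypes in 1 fit and 4 residual degrees of freedom. A gene was tested when 2 or more of the 8 replicates had 10 normalized counts or more. Benjamini-Hochberg adjustment ran over all 14473 genes, with a threshold of 0.05. edgeR 4.0.16 and DESeq2 1.42.0 on the recovered reads were alternatives, beside other pseudocounts, filters, scalings and left-out replicates. The limma fit, but not edgeR or DESeq2, was tried on simulated counts. These had the same small spread for all genes and large changes in abundant genes only. They cannot show how the fit performs for genes as variable as the 8. The genes and marker lists were chosen with earlier results of these data known. The text names all 8 genes and, of the neutrophil and interleukin-1 lists, those passing limma, the 4 most abundant of each, Mmp9, Ly6g, Csf3 and Cxcl2. Of each other list it names the most abundant. Replicate numbers come from the labels and were not used to pair the samples in the main test.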

Additional observations from a re-analysis of the deposited data

How the results depend on the processing

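With 2 replicates a genotype, the spread between replicates limits every comparison here, and low genes such as Cxcr2 and Clec4d also lack depth. Of 40 pairs of a gene and a comparison, 22 kept their direction in 21 alternatives and 18 changed sign in at least 1. limma and edgeR called 0 of the 40 in any alternative and DESeq2 called 2. KO replicate 1 was highest for 5 of the 8 genes with the main values, TMM scaling and first libraries only, and for 4 with repeat libraries only.

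The count of genes changed between KO and WT was 1. It was 2 with quantile normalization and 2 without the trend, and 0 with the compared groups only, with repeat KO libraries only, with edgeR and with the replicate block. It was 527 with DESeq2 and 0 to 1 with a replicate left out. Between IL4-/-KO and IL4-/- it was 0, or 1 with quantile normalization and 51 with DESeq2. DESeq2 gave 393 between IL4-/-KO and KO, 31 between IL4-/- and WT and 35 for the interaction, against 0. Differences between replicates 1 and 2 were correlated between genotypes, with values of -0.358 to 0.236. They were 0.192 to 0.236 among KO, IL4-/- and IL4-/-KO, and below 0 for WT with each. With 1 difference a genotype, these values cannot show whether replicates of the same number are linked.

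For Clec4d between KO and WT the direction turned, to 0.05 with a pseudocount of 5, 0.25 with quantile normalization, 0.99 with edgeR and 0.98 with DESeq2, and ran from -3.45 to 2.40 with a replicate left out. The same range was -2.96 to 3.94 for Cxcr2 and -0.71 to 2.52 for G0s2. Between IL4-/-KO and IL4-/- it was -2.66 to 0.35 for Csf3r and -3.78 to 0.36 for Il1b. The cause was not tested. The compared groups alone could not give an interaction.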
